A study of Mus musculus with 9 samples.

Results

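Keratins 6, 16 and 17 are the keratins of stressed, wounded and hyperproliferating epidermis. In the mouse they are encoded by Krt6a, Krt6b, Krt16 and Krt17 (KRT6A, KRT6B, KRT16 and KRT17 in the platform annotation). All probes carrying 1 of these 4 symbols in the platform annotation were taken, and each gene had 1 probe, so 4 of 26423 probes (4 of 17742 named genes) are described here. RNA came from the shaved back skin of mice labelled as female BALB/c and treated for 7 days, with 3 arrays in each of 3 groups. Mock mice received Vaseline cream. The mice called IMQ received imiquimod on the skin, an agonist of toll-like receptor 7 that induces a psoriasis-like inflammation. The vanillin group received imiquimod on the skin and 100 mg/kg of oral vanillin, the aroma compound of vanilla. No group received vanillin without imiquimod, so its effect on skin that was not inflamed was not measured. No age of the mice is given. Nothing in the labels ties each array to a mouse of its own, and p-values therefore reflect array-to-array spread that may be technical.

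Keratins are the intermediate filaments of epithelial cells, and each filament unit pairs a type I with a type II chain. Krt6a and Krt6b encode type II chains, while Krt16 and Krt17 encode the type I chains that pair with them. In healthy skin these keratins are found mainly in the hair follicle, in its outer root sheath and companion layer, and in nail and glands, while the epidermis between follicles contains mostly keratins 5 and 14 in its basal layer and keratins 1 and 10 above it. Injury, barrier loss and psoriasis bring keratins 6, 16 and 17 into the layers above the basal one. Cytokines such as interleukin-1, interleukin-17, interleukin-22 and interferon gamma, ligands of the epidermal growth factor receptor and the transcription factors AP-1, STAT3 and NRF2 are known to drive their transcription.

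The deposited values are linear probe intensities made nearly identical in distribution between arrays, with medians of 629 to 631, so a probe's value on an array is in effect its place in the brightness order of that array. The highest value is 431458 on every array, or 18.72 on the log2 scale. A change of total signal cannot be seen, and a probe close to the top has little room to rise. No count or detection call goes with the values, and the number of arrays limits their precision. The tissue is labelled skin while the extraction text names muscle. Krt14 (18.18 to 18.72 over the 9 arrays) and Krt10 were among the brightest probes, and none of the 9 measured skeletal muscle markers was under the array median on all 3 arrays of a group, so markers of both tissues were present. In bulk RNA a change in the number of cells of a type and a change of RNA per cell cannot be told apart.

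Imiquimod moved the 4 keratin probes by very different amounts. Krt6b, 1 of the mouse genes for keratin 6, rose 198-fold, and Krt16, its type I partner, rose 10.7-fold. Krt6a, the other keratin 6 gene, rose 1.51-fold from a level that was already high in mock skin. Krt17 was not called, at a log2 fold change of -0.18. In all, 3 of the 4 probes were called higher, beside 24% of all probes called higher and 29.6% called lower (53.6% in either direction).

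Krt6b went from the middle of the brightness order to the top. Its log2 intensity was 9.43, 9.36 and 9.30 on the mock arrays, beside an array median of 9.30. On the IMQ arrays it was 17.00, 16.98 and 16.99, and with vanillin 17.48, 17.48 and 17.53. The mock values lay far below both treated groups, and the vanillin values all lay above the IMQ values. In rank, the probe was between the 12826th and the 13220th brightest on mock arrays, the 77th to 79th on IMQ arrays and the 35th to 40th on vanillin arrays. The log2 fold change of IMQ against mock was 7.63 ± 0.08 (SE, limma adjusted p = 1.87e-10), the 2nd highest of all probes, with a 95% interval of 176-fold to 223-fold. Since no detection call was given, whether the mock level lay above background was not tested, and the size of the fold depends on it.

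Krt16, the type I chain that pairs with keratin 6 in the suprabasal layers of psoriatic epidermis, was already well above the array median in mock skin. It read 14.26, 14.14 and 13.98 on the mock arrays. It read 17.57, 17.53 and 17.54 on the IMQ arrays and 17.75, 17.89 and 17.84 on the vanillin arrays. No 2 groups overlapped. The log2 fold change of IMQ against mock was 3.42 ± 0.09 (SE, limma adjusted p = 1.03e-07), with a 95% interval of 9.24-fold to 12.4-fold.

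Krt6a, which in untreated skin marks the companion layer of the hair follicle, was bright in every group. Its mock values were 16.25, 16.57 and 16.77, a wider spread (SD 0.27) than in IMQ (SD 0.05) or vanillin skin (SD 0.17). On IMQ arrays it read 17.18, 17.12 and 17.07, and on vanillin arrays 16.99, 16.94 and 17.25. All 6 treated values lay above the 3 mock values, while the treated groups overlapped each other. The log2 fold change of IMQ against mock was 0.60 ± 0.14 (SE, limma adjusted p = 0.00709), or 1.21-fold to 1.90-fold as a 95% interval. Krt6a and Krt6b encode proteins that are nearly the same, and the probe sequences were not used here, so how far each probe reads the RNA of the other gene was not tested. On the mock arrays the Krt6b probe lay near the array median while the Krt6a probe ranked 106th to 199th. In linear intensity the Krt6a probe read 77671 to 111841 in mock and 137856 to 148580 in IMQ skin. The Krt6b probe read 628 to 688 in mock and 129548 to 130839 in IMQ skin. Whether Krt6b RNA added to the rise of the Krt6a probe was not tested.

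Krt17, a keratin of follicle and gland epithelium that is also a classical marker of psoriatic plaques, was among the brightest probes of every array. It read 18.18, 18.11 and 18.11 in mock, 17.98, 17.98 and 17.91 in IMQ, and 17.98, 18.11 and 18.11 in vanillin skin. The IMQ values were slightly below the mock values without overlap, and the vanillin values spanned both. Its rank was 8th to 9th in mock, 12th to 15th in IMQ and 9th to 12th in vanillin skin, so from the mock mean only 0.59 log2 units remained to the highest value of the table. The log2 fold change of IMQ against mock was -0.18 ± 0.08 (SE, limma adjusted p = 0.0887), with a 95% interval from -0.36 to 0.00. With a robust spread prior (adjusted p = 0.0274) or array weights (adjusted p = 0.0164) it was called lower. Groups without overlap, as for all 4 keratin probes in this comparison, were seen for 68% of all probes.

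**Figure D1:**
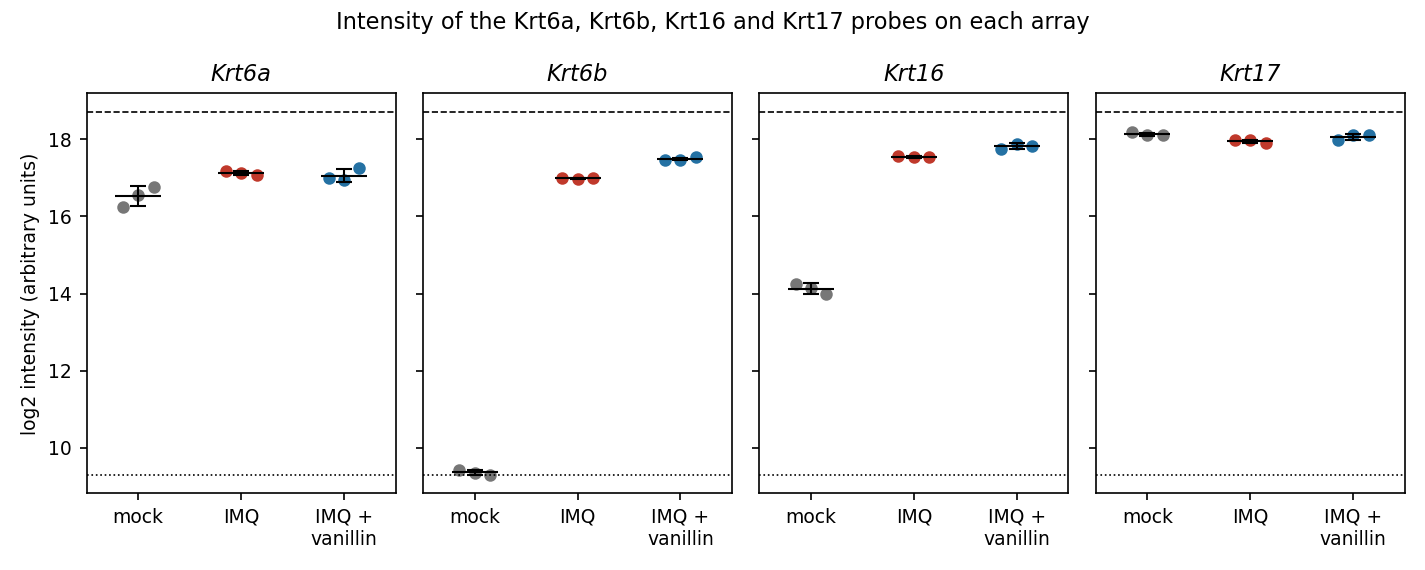
Log2 intensity (vertical axis) of the Krt6a, Krt6b, Krt16 and Krt17 probes in mock, IMQ and IMQ with vanillin skin. Each point is 1 array, the horizontal bar is the group mean and the whiskers are 1 SD (n = 3). The dashed line is the highest value of the table (18.72) and the dotted line is the array median (9.30): Krt6b starts at the median in mock skin, and Krt17 lies near the top in every group.

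With oral vanillin added to imiquimod, none of the 4 keratin probes was called lower than with imiquimod alone, and 2 were called higher. The background is 24.3% of all probes called higher and 17% called lower (41.2% in either direction). The count behind this share, 10898 probes, was 6576 without IMQ replicate 3 and 6923 without IMQ replicate 1. Krt6b was 1.42-fold higher than in IMQ skin, and Krt16 was 1.21-fold higher. Krt6a and Krt17 did not pass the test, with intervals that include no change. Krt6b and Krt16 were also the 2 whose groups did not overlap, as for 58.5% of all probes.

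For Krt6b the log2 fold change of vanillin against IMQ was 0.50 ± 0.08 (SE, limma adjusted p = 0.00211), with a 95% interval of 1.26-fold to 1.60-fold. It stayed called in all 19 alternative fits run for it (adjusted p up to 0.0140). For Krt16 it was 0.28 ± 0.09 (SE, limma adjusted p = 0.0416), with an interval of 1.05-fold to 1.41-fold. When single arrays were left out, 7 of the 9 fits lost this call, those without mock replicate 2, any IMQ replicate or any vanillin replicate (adjusted p up to 0.114 without vanillin replicate 2). It was also lost with a replicate block (adjusted p = 0.0736), and the direction held in each. For Krt6a the value was -0.06 ± 0.14 (SE, limma adjusted p = 0.740), with an interval of 0.763-fold to 1.20-fold. For Krt17 it was 0.11 ± 0.08 (SE, limma adjusted p = 0.291), with an interval of 0.953-fold to 1.22-fold.

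The 3 IMQ arrays were closer to each other than the arrays of the other groups: over all probes the median SD within the group was 0.0792 in IMQ, 0.158 in mock and 0.170 in vanillin skin, on the log2 scale. For Krt6b the SD over the IMQ arrays was 0.007, and for Krt16 it was 0.02. In rank, Krt16 was the 31st to 35th brightest probe on IMQ arrays and the 16th to 22nd on vanillin arrays, and the room from its IMQ mean to the highest value was 1.17 log2 units.

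Against mock skin, the vanillin group kept the same 3 of 4 keratin probes called higher, beside 11.9% of all probes called higher and 14.7% lower (26.7% in either direction). The groups of these 3 did not overlap, as for 37.8% of all probes. This comparison and that of IMQ against mock share the mock arrays. Krt6b was 281-fold higher, the highest change of all 26423 probes, at 8.13 ± 0.08 (SE, limma adjusted p = 1.66e-10). Krt16 was 13.0-fold higher, at 3.70 ± 0.09 (SE, limma adjusted p = 6.12e-08). Krt6a was 1.45-fold higher, at 0.53 ± 0.14 (SE, limma adjusted p = 0.0236), a call lost without mock replicate 2 (adjusted p = 0.0549), without vanillin replicate 3 (adjusted p = 0.0600) and with only these 2 groups in the fit (adjusted p = 0.0731). Krt17 read -0.07 ± 0.08 (SE, limma adjusted p = 0.577).

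**Figure D2:**
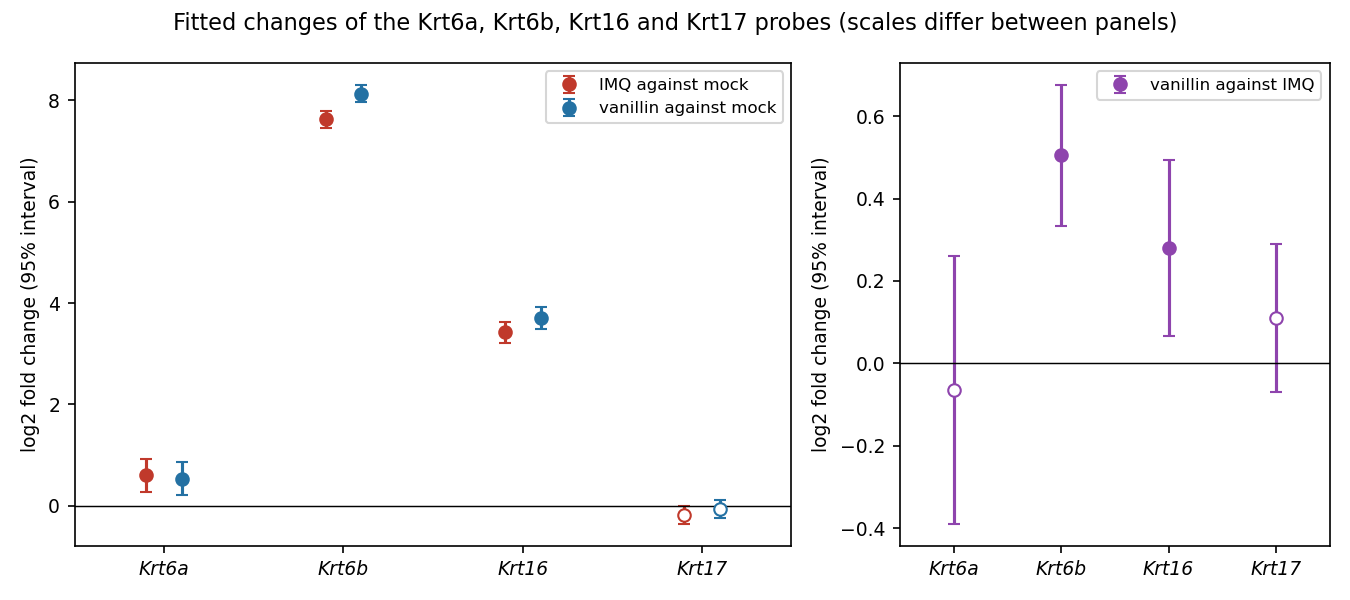
Log2 fold changes from limma with 95% intervals for the 4 keratin probes, for both treated groups against mock (left) and for vanillin against IMQ (right, on a narrower scale). Filled points were called at an adjusted p under 0.05 and open points were not: Krt6b and Krt16 stand at 7.63 and 3.42 on the left, and at 0.50 and 0.28 on the right.

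Whether the 4 keratins changed by unequal amounts was asked within arrays, from the difference between the log2 values of a pair of keratins on the same array. There were 6 pairs in 3 comparisons, so 18 tests by exact two-sided permutation, and with 3 arrays against 3 none can go below p = 0.1. Of these, 17 reached that smallest p (Benjamini-Hochberg adjusted p = 0.106). The 6 pairs share 4 probes and are not independent, and the non-overlap of groups was common among single probes (the 68%, 58.5% and 37.8% above), so the count is no evidence of unequal change and the sizes are given as a description. Between mock and IMQ skin the Krt6a minus Krt6b difference changed by -7.03 log2 units, a 131-fold unequal change of the 2 keratin 6 genes. The Krt16 minus Krt17 difference changed by 3.60, a 12.1-fold unequal change.

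Between vanillin and IMQ skin the unequal changes were far smaller. The Krt6a minus Krt6b difference went from 0.08 to 0.18 on IMQ arrays to -0.54 to -0.28 on vanillin arrays, a 1.48-fold unequal change. The partners Krt6b and Krt16 changed by 1.17-fold unequal amounts, with differences of -0.57 to -0.55 on IMQ arrays and -0.41 to -0.28 on vanillin arrays. Only the pair Krt6a and Krt17 overlapped between the groups (exact permutation p = 0.2).

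In gene order, Krt6b and Krt6a are next to each other among the type II keratins, between Krt75 and Krt5. Krt16 and Krt17 are next to each other among the type I keratins, between Krt14 and Krt42. None of these 4 neighbours was called higher with IMQ. Krt75, a companion layer keratin, fell by 0.73 on the log2 scale with IMQ (SE 0.09, limma adjusted p = 0.000224), from 11.98 to 12.23 in mock to 11.32 to 11.35. Krt5, the type II keratin of basal cells, read 0.13 ± 0.09 (SE, adjusted p = 0.272), and its type I partner Krt14 read 0.18 ± 0.14 (SE, adjusted p = 0.291). Krt42, a close relative of Krt17, read 0.35 ± 0.14 (SE, adjusted p = 0.0650). Krt14 is as near the top as Krt17, at 18.18 to 18.51 in mock and 18.29 to 18.61 in IMQ skin.

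Over the whole type I set 2 of the 26 other measured keratins were called higher with IMQ and 14 lower, with a median change of -0.35. In the type II set it was 3 higher and 10 lower of 21, also with a median of -0.35, beside a median of -0.04 over all probes. Of all probes, 24% were called higher with IMQ and 29.6% lower (53.6% in either direction). This set of all numbered keratin genes on both chromosomes was chosen after values had been seen. Of the other keratins, Krt1, the suprabasal type II keratin, rose by 3.43 ± 0.12 (SE, limma adjusted p = 4.35e-07), close to the change of Krt16. Its partner Krt10 read 0.15 ± 0.09 (SE, adjusted p = 0.203) and was brighter than 18.3 on every array, thus near the top as well. Krt78 rose by 2.76 and Krt20 by 1.38, while Krt77 changed by -2.88. With vanillin against IMQ, 4 of the 26 other type I keratins were called higher and 7 lower, with a median of -0.06. Of the 21 other type II keratins, 1 was higher and 3 lower, with a median of 0.04. Over all probes 24.3% were called higher and 17% lower, with a median of 0.03. In this comparison Krt20 changed by -1.35 (limma adjusted p = 0.000424), and Krt28, a keratin of the inner root sheath, by -0.91. The simple-epithelium keratin Krt19 rose by 0.89 and Krt13 by 0.93. Krt1 read 0.04 ± 0.12 (SE, adjusted p = 0.797), Krt15, a keratin of basal and follicle stem cells, fell by 0.29 (adjusted p = 0.0472), and Krt42 fell by 0.41 (adjusted p = 0.0461).

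**Figure D3:**
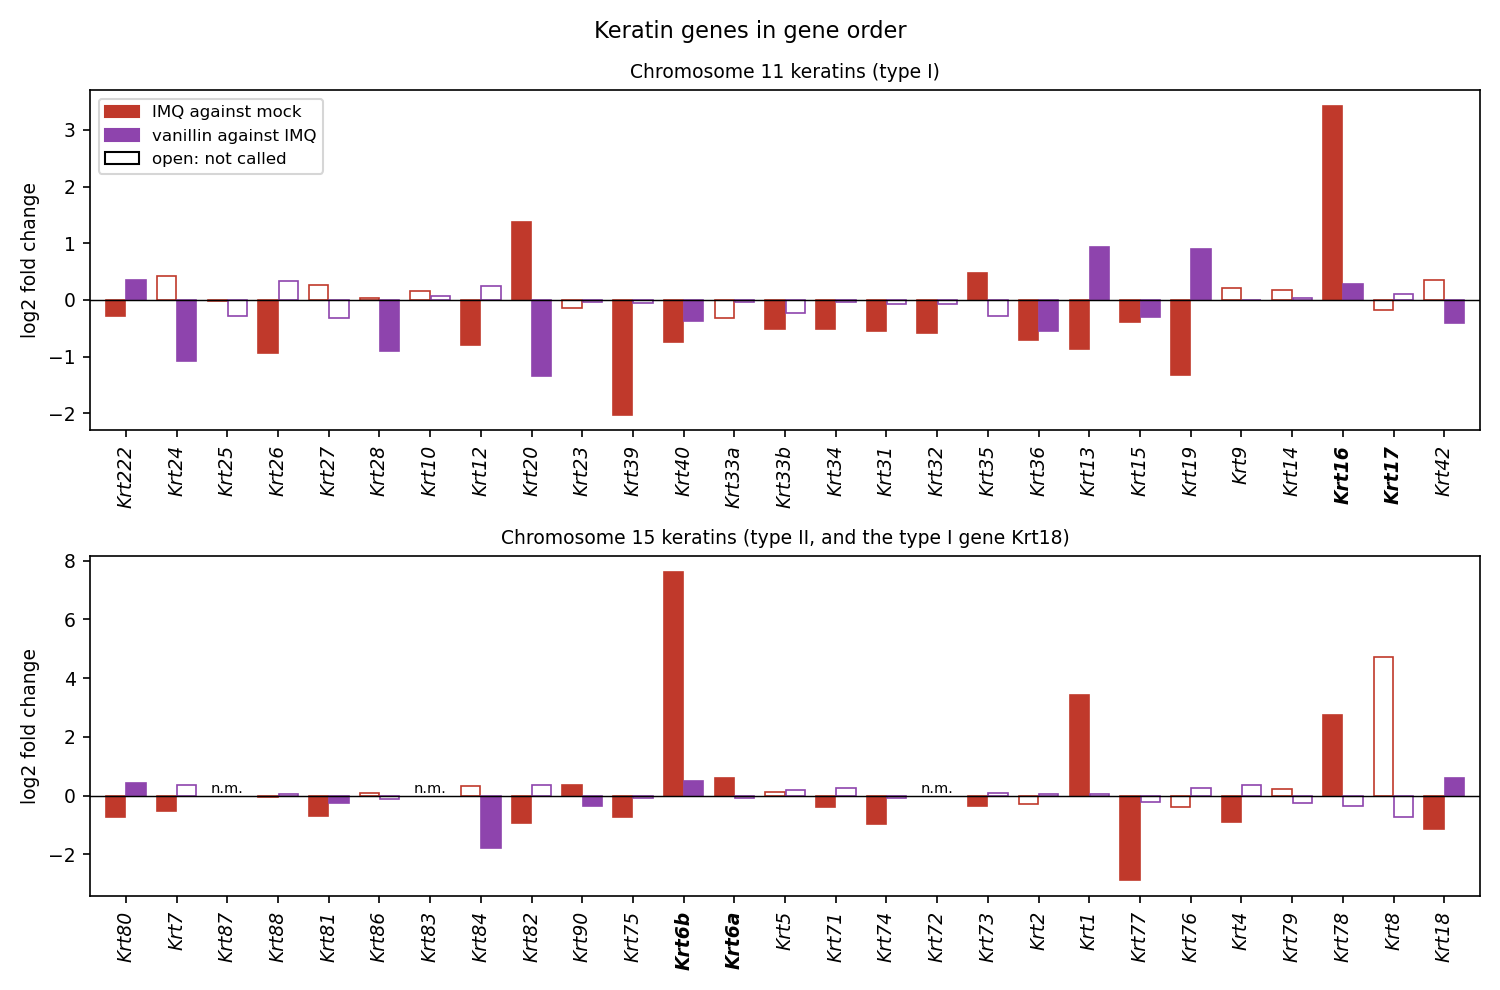
Log2 fold changes (vertical axis) of all keratin genes with a probe, in gene order on mouse chromosomes 11 and 15, for imiquimod compared with mock (red) and for vanillin compared with IMQ (purple). Filled bars were called, open bars were not, n.m. marks genes with no named probe, and the names of the 4 keratins described here are in bold: Krt6b (7.63) and Krt16 (3.42) rise above their neighbours Krt75, Krt5, Krt14 and Krt42. The tall open bar of Krt8 rests on a probe whose readings scattered over much of the scale within groups.

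Of 34 measured genes known to act on the transcription of these keratins, 15 were called higher with IMQ, 8 lower and 11 were not called, with a median change of 0.25 beside -0.04 over all probes. That is 67.6% called, beside 53.6% of all probes. The list was not split by direction of action, so these counts give no net direction for the keratins. The smallest adjusted p in this list belonged to the interleukin-36 cytokines and to Ereg. Il1f6 (interleukin-36 alpha) rose by 5.56, Il1f9 (interleukin-36 gamma) by 4.36 and Il1f8 (interleukin-36 beta) by 1.64. Ereg encodes epiregulin, a ligand of the epidermal growth factor receptor, and rose by 2.64 ± 0.11 (SE, limma adjusted p = 1.28e-06). Among the drivers named above, Il1a rose by 1.15 and Il1b by 1.05, while Stat3 changed by -1.18 and Ifng by -0.43. Of the AP-1 genes in the list, Fos (0.70), Fosl1 (0.37) and Junb (0.35) were called higher and Jun (-0.49) lower. Nfe2l2, the gene of NRF2, rose by 0.27. Of the other ligands of the epidermal growth factor receptor, Hbegf (0.98) and Epgn (0.98) were called higher and Tgfa (-1.07) lower. Btc (0.30) was not called and Areg had no named probe. The receptor gene Egfr changed by -0.33. Il17a read -0.09 and Il17f 0.43, neither of them called, and Il22 had no named probe. With vanillin against IMQ, 9 were higher, 3 lower and 22 not called, with a median of 0.08. That is 35.3% called, below the 41.2% of all probes. Fos, a subunit of AP-1, rose by 1.74 ± 0.16 (SE, adjusted p = 0.000539) and Il1f8 by 0.74, while Ereg fell by 1.01 ± 0.11 (SE, adjusted p = 0.000946) and Il1f9 by 0.75.

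The proteins that anchor keratin filaments at cell junctions were called about as often as all probes. Of 20 measured genes of desmosomes and keratin partners, 4 were higher with IMQ, 8 lower and 8 not called, with a median of -0.19. That is 60% called, beside 53.6% of all probes. Dsc2, a desmosomal cadherin, changed by -1.62 ± 0.10 (SE, limma adjusted p = 7.02e-06), while Dsg1a, the cadherin of upper layers, rose by 1.05 and the junction protein Perp by 0.66. Tchp, the keratin-binding protein trichoplein, changed by -0.69. With vanillin against IMQ 8 were higher and 2 lower (50% called, beside 41.2%), with a median of 0.19 beside 0.03 over all probes. Dsc3 rose by 0.56, the plaque protein Pkp1 by 0.35 and the keratin 17 binding adaptor Tradd by 0.58, while Pkp3 changed by -0.59.

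Other genes of activated epidermis gave 12 higher, 3 lower and 4 not called of 19 with IMQ (78.9% called, beside 53.6% of all probes), with a median of 1.17. Sprr2d (7.83), Lce3f (6.63) and Sprr2e (4.63), all of the cornified envelope, and S100a9 (5.54), a subunit of calprotectin, had the smallest adjusted p. The probe of S100a8, the other calprotectin subunit, was dim (means of 6.84 in mock and 6.78 in IMQ skin). It was not called (-0.06, limma adjusted p = 0.897). With vanillin against IMQ, 7 members were higher and 2 lower while 10 did not pass (47.4% called, beside 41.2%), with a median of 0.11. There Lce3b rose by 1.55, Lce3a by 1.02, S100a7a by 0.58 and Sprr2e by 0.51. The 2 called lower, named for completeness, were Lce3f at -0.82 and Sprr1a at -0.97. S100a7a had changed by -2.05 with IMQ and remained at -1.47 against mock.

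Of 16 measured cell cycle genes, 3 were higher with IMQ, 8 lower and 5 not called, with a median of -0.21. That is 68.8% called, beside 53.6% of all probes. Ccne1, a cyclin of the start of DNA replication, rose by 1.37 ± 0.09 (SE, limma adjusted p = 1.14e-05), while the mitotic cyclin Ccnb2 changed by -0.99, Aurka by -0.51 and Birc5 by -0.51. Mki67, the common proliferation marker, named after its value was seen, changed by -0.57 ± 0.14 (SE, adjusted p = 0.00717). With vanillin against IMQ 5 were higher and 2 lower (43.8% called, near the 41.2% of all probes), with a median of 0.05. Mki67 rose by 0.49 ± 0.14 (SE, adjusted p = 0.0205). Aurka (0.51) and Mcm2 (0.54) rose, and Ccne1 (-0.55) and Aurkb (-1.02) fell.

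Markers of other cell types moved beside these keratins, and their part in the keratin values was not tested. Of 10 markers of the outer root sheath, companion layer and follicle stem cells, where keratins 6, 16 and 17 are found in normal skin, 7 were lower with IMQ and 1 higher, with a median of -0.76. That is 80% called, beside 53.6% of all probes (24% higher and 29.6% lower). Their summed intensity was 186685 to 210906 in mock, 143667 to 147806 in IMQ and 119456 to 135091 in vanillin skin. Krt15 alone made up 62.3% to 68.7% of these sums, and without it they were 70316 to 73690 in mock, 45561 to 47269 in IMQ and 44996 to 45854 in vanillin skin, so the treated groups overlapped. With vanillin against IMQ, 3 of these markers were higher, 2 lower and 5 not called (50% called, beside 41.2%), with a median of -0.08. The follicle factor Lhx2 rose by 0.52 and the stem cell receptor Lgr5 by 0.68, while Krt15, 1 of the 2 called lower, changed by -0.29. Hair shaft and inner root sheath markers were lower with IMQ for 10 of 17 and higher for 1 (64.7% called, beside 53.6%). Basal keratinocyte markers gave 3 higher and 4 lower of 9 (77.8% called). Their summed intensity overlapped (481885 to 539875 in mock, 503354 to 588560 in IMQ). Without Krt14, the brightest of them, the sums also overlapped (167446 to 184788 in mock, 181384 to 187171 in IMQ). Suprabasal markers gave 5 higher and 1 lower of 8 (75% called), with sums of 981648 to 1041711 in mock and 1486113 to 1518266 in IMQ skin.

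Markers of muscle, fat and other tissues also differed between the groups. With IMQ, 6 of 9 skeletal muscle markers and 9 of 10 adipocyte markers were lower, and with vanillin against IMQ 8 of 9 and 8 of 10 were higher. Over all probes, 29.6% were called lower with IMQ and 24.3% higher with vanillin against IMQ. Summed muscle marker intensity was 400211 to 443925 in mock, 322536 to 328408 in IMQ and 406765 to 426249 in vanillin skin. For adipocyte markers it was 342020 to 359794, 227838 to 232258 and 252525 to 263806. Fabp4 alone made up 25.6% to 34.6% of this sum in mock, 46.9% to 47.9% in IMQ and 27.8% to 33.5% in vanillin skin. Without Fabp4 the adipocyte sums were 225024 to 254392, 120559 to 120902 and 175366 to 184826. Fibroblast markers gave 2 higher and 5 lower of 8 with IMQ, leukocyte markers 5 higher and 1 lower of 10, and sebaceous gland markers 2 higher and 4 lower of 10. The shares called were 87.5%, 60% and 60%, the last 2 near the 53.6% of all probes. No marker of these 6 tissue lists (muscle, adipocyte, fibroblast, leukocyte, sebaceous gland and follicle sheath) was at or below 0. Between vanillin and IMQ skin, the median change was 0.06 for the suprabasal and 0.04 for the basal keratinocyte markers, beside 0.03 over all probes.

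**Figure D4:**
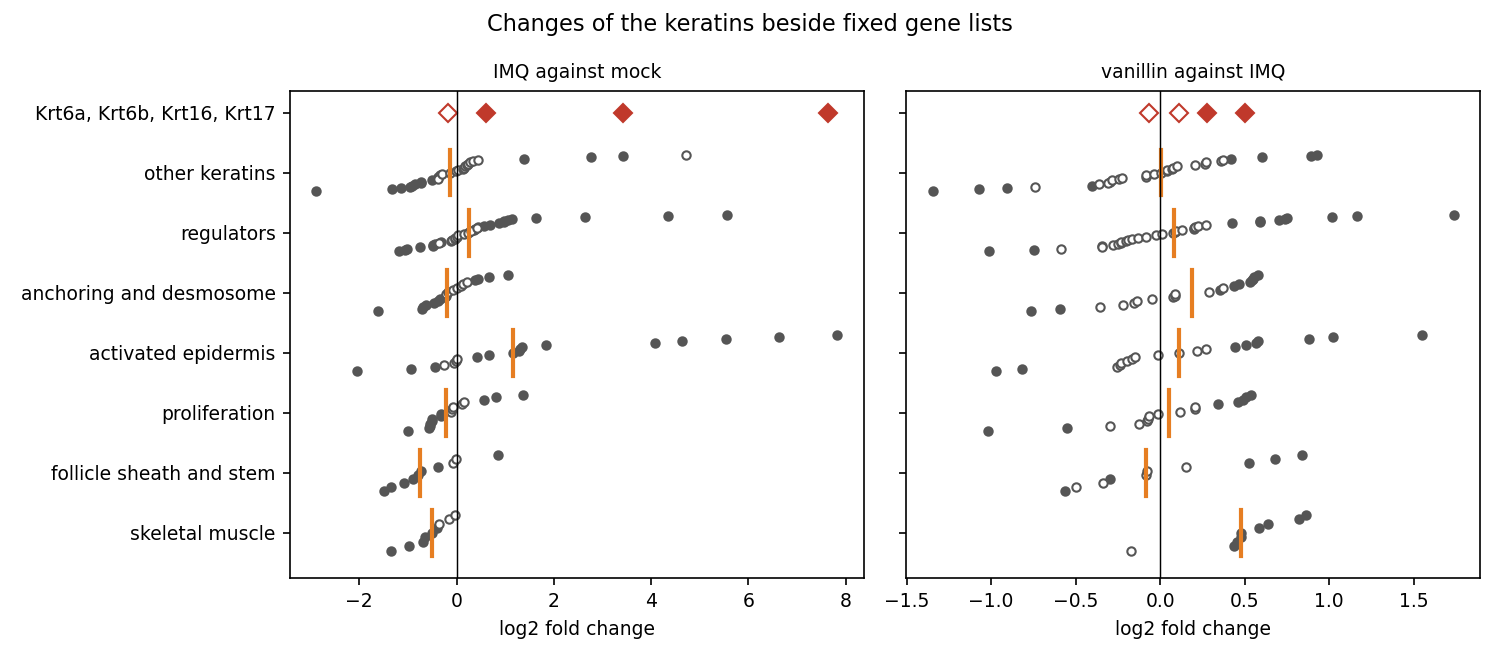
Log2 fold changes (horizontal axis) of the 4 keratins (diamonds) and of the genes of 7 lists (points) with IMQ against mock on the left and vanillin against IMQ on the right, on a narrower scale. Filled symbols were called, open symbols were not, and the orange bar is the median of a list: for IMQ against mock the median is 1.17 for activated epidermis and -0.76 for follicle sheath and stem cell markers.

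The genes most like each keratin in pattern were taken by the smallest root mean square difference over the 9 arrays, each probe relative to its own mock mean, among 16574 named genes. For Krt6b this was Sprr2d, a small proline-rich cornified envelope precursor, at 0.167 log2 units. The next genes were already far off, Lce3f at 1.48 and Il1f6 at 1.95. Sprr2d rose by 7.83 with IMQ, slightly more than Krt6b, and read 0.11 for vanillin against IMQ. For Krt16 the most similar genes were Klk9, a kallikrein-related protease (0.109), Xist, the RNA that coats the inactive X chromosome (0.115), and Lce3e (0.187). Xist rose by 3.34 on its probe although all 9 samples are labelled female. A second, dimmer probe of Klk9 gave 4.80 with IMQ against mock and -0.13 with vanillin against IMQ, unlike the 3.52 and 0.22 of the probe compared.

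For the keratins with small changes the nearest genes were closer. For Krt6a the most similar genes were Aldh1l2 (0.0673), Avpi1 (0.0752) and Zfp518a (0.0778). A dimmer second probe of Zfp518a was not called for IMQ against mock (0.32, adjusted p = 0.415) and read -0.88 with vanillin against IMQ, unlike the probe compared. For Krt17 they were Knop1 (0.0424), Glud1 (0.0471) and Nr2f6 (0.0508). Among the 4 keratins the closest pair by the same measure was Krt6a and Krt17 at 0.588, and the type I and type II partners Krt6b and Krt16 differed by 3.53. The measure depends on the size of the changes, and the closest pair did not share a direction. With IMQ against mock Krt6a changed by 0.60 and Krt17 by -0.18, the latter not called.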

How the data were processed

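The deposited table holds linear intensities for 26423 probes on 9 one-colour arrays (Cy5, per the labels' protocols). Limma is named in the submitters' processing notes, without a version, while scanner, background correction and filters were not stated. Between arrays, sorted values differed by at most 3.42% above an intensity of 100. Values under 1 (2 to 3 per array) were set to 1 and log2 was taken, with no further normalization. A model with 1 coefficient per group over all 9 arrays was fitted to each probe with limma 3.58.1 in R 4.3.3, and p-values were adjusted by Benjamini-Hochberg over all probes, with calls at an adjusted p under 0.05. Of the probes, 20377 had 1 gene symbol and 6046 none. Symbols were updated through a table of GRCm38.p6, used for names and gene order only.

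Gene lists use 1 probe a gene, the one with the highest mean. Named are the 4 keratins, Krt1, Krt5, Krt10, Krt14, Krt15, Krt42 and Krt75, up to 4 called genes with the smallest adjusted p per list and comparison, and the 3 genes most like each keratin, predicted genes passed over. Mki67, Krt8, Lhx2, Lgr5, Sprr1a, S100a8, Fabp4, Il1a, Il1b, Stat3, Ifng, Il17a and Il17f, outside this rule, were named after their values were seen. The same holds for Fosl1, Junb, Jun, Nfe2l2, Hbegf, Epgn, Tgfa, Btc and Egfr, and for Fos with IMQ against mock. The keratins and lists were chosen with earlier results of these data known. On simulated data for IMQ against mock (26423 probes), 8, 30, 47 and 50 of 50 probes changed by 0.5, 1, 2 and 4 log2 units were recovered, and 9 of 26223 unchanged probes were called. A far larger share of the real probes was called (53.6%) than was changed in the simulation. Its recovery therefore does not give the sensitivity in the real data. None of the 4 keratins matched the promoter table, so no sequence is shown.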

Additional observations from a re-analysis of the deposited data

How the results depend on the processing

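Alternatives were quantile normalization, median centring, an offset of 16, leaving out the lowest 25% of probes, a robust prior, array weights, fits of only the groups compared, a replicate block, a threshold of 0.01, gene means and the removal of single arrays. Of 19 alternatives each, Krt6b and Krt16 against mock, Krt6b for vanillin against IMQ and Krt6a for IMQ against mock kept direction and call in all of them. With array weights Krt17 for IMQ against mock was called lower at -0.14, and with a robust prior at -0.18. For vanillin against IMQ, the keratin probes called fell from 2 to 1 with a replicate block and at the 0.01 threshold, where Krt16 stayed at 0.28 but was not called. With 1 array left out they were 1 to 2, and Krt16 ran from 0.25 to 0.32. Krt6a for vanillin against mock stayed at 0.53 but was not called with only both groups in the fit or at 0.01, and ran from 0.39 to 0.65 with 1 array left out. With 1 array left out, all probes called for vanillin against IMQ ran from 6576 (without IMQ replicate 3) to 12805 (without vanillin replicate 3), and were 6923 without IMQ replicate 1. They were 16208 with array weights. At 0.01 they were 5457, and 4231 for vanillin against mock. Same-numbered arrays of different groups had deviations correlated at -0.27 to 0.22, and 6 of 18 checks paired an array best with its own number, so the numbers were not taken to pair the arrays. The replicate block gave 13609, 9968 and 6224 called probes for IMQ against mock, vanillin against IMQ and vanillin against mock, and changed no other keratin call. The cause of each lost call was not tested.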

Other observations

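The only probe of Krt8, a keratin of simple epithelia, read 2.26 to 3.50 in mock, 3.19 to 9.63 in IMQ and 0.00 to 10.07 in vanillin skin, a spread within groups that covered much of the scale.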
